A study of Mus musculus with 24 samples.

Results

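The genes of the proteasome were read from liver RNA of mice on 3 diets. They were found as all probe sets of the array whose platform annotation lists exactly 1 gene symbol that begins with Psma, Psmb, Psmc, Psmd, Psme, Psmf or Psmg and a number, without Psmb8 and Psmb9, and this gave 100 probe sets of 47 genes among 45037 probe sets that are not array controls. Of these, 3 probe sets belong to Psmc3ip and Psme3ip1, whose names match although the proteins bind subunits or activators and are not part of the proteasome; 97 probe sets of 45 genes remain without them. The probe set of Psme2, the partner of Psme1, lists 2 symbols and was not analysed here.

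The mice were male C57BL6J animals, per the labels. A group of 6 (HF+P) was fed a 45% high-fat diet that contained 5% propagule powder of Japanese yam, 6 (HF) were fed the 45% high-fat diet alone and 6 (LF) stayed on the low-fat diet on which all had been acclimated. Feeding lasted 4 weeks, and all mice had been starved for 16 h when the liver was taken. Total RNA of each of the 18 mice was read on 1 array, and per the labels the HF group was processed in 2 sets, once beside LF and once beside HF+P.

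The proteasome is the protease complex that degrades ubiquitin-tagged proteins in the cytosol and nucleus. Its 20S core is a stack of rings of alpha subunits, which gate the entry, and beta subunits, of which Psmb5, Psmb6 and Psmb7 carry the constitutive peptidase activities. In immune cells and under interferon these are replaced by Psmb8, Psmb9 and Psmb10. The 19S cap adds a ring of ATPases (Psmc genes), which unfold substrates, and non-ATPase subunits (most Psmd genes), which bind and remove ubiquitin; other caps, Psme1 with Psme2, Psme3 or Psme4, open the core without ubiquitin, and Psmg genes with Psmd5, Psmd9 and Psmd10 help to assemble the complex. In liver the complex turns over much of the regulated protein pool, including apolipoprotein B that is not secreted.

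Between mice the deposited values were nearly constant. Over the 12 arrays of HF and LF, the SD of a proteasome probe set had a median of 3.58e-06, against 4.17e-06 for all probe sets, at deposited levels whose median per array is 6.90. Differences of these values are therefore not fold changes. Sizes are given as standardized differences, the difference of the group means in units of the pooled SD within groups (with the correction of Hedges, a 95% interval and 6 mice per group throughout), and the value of a mouse is its distance from the mean of the comparison diet in the same unit. The 6 HF arrays had nearly the same order in both value sets: the correlation over these arrays had a median of 0.979 over the 100 probe sets (lowest 0.58, with 82 above 0.9) and of 0.952 over all probe sets, as a description of arrays processed in different company.

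Hepatocyte markers were present, with 9 of 9 measured genes above the median probe set at deposited levels of 7.56 to 14.9. In whole liver, fewer cells of a type and less RNA per cell cannot be told apart. HF mouse 3 stood apart from the others in interferon response genes, with a mean distance of 3.51 from LF over 15 genes, against 0.14 to 1.0 in the other HF mice and -0.48 to 0.79 in LF mice. Kupffer cell and macrophage markers were higher in HF in 11 of 11 genes (scores of -0.22 to 2.60 in HF mice, against -0.88 to 1.58 in LF mice) and lymphocyte markers in 11 of 11 (0.24 to 1.99 in HF mice, against -0.36 to 0.40 in LF mice), both highest in HF mouse 3. Hepatocyte markers were higher in HF in 2 of 9 (-1.30 to 0.18 in HF mice, against -0.76 to 0.57 in LF mice), and endothelial markers in 1 of 4 (-1.07 to -0.16 in HF mice, against -0.68 to 0.65 in LF mice). Stellate markers were higher in HF in 3 of 4 (-0.16 to 1.58 in HF mice, against -0.97 to 0.87 in LF mice) and red blood cell markers in 1 of 2 (0.26 to 1.46 in HF mice, against -0.72 to 1.12 in LF mice). In none of these lists was a gene called, and their part in the results below was not tested. Differences between diets that rest on HF mouse 3 are also given without it. Of the 100 proteasome probe sets, 79 lay above the median probe set by mean level in the arrays of HF and LF.

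Promoter sequence is printed for Psma4, the 1 gene called in HF against LF. It is also printed for Psme1, whose deposited values had a large SD over the arrays, and for Psmd9, which had the lowest standardized difference in HF against LF. It was taken from RefSeq (GRCm38.p6, 5′ to 3′ on the gene's strand, which is the plus strand for all 3) and ends at the last base before the annotated gene, which begins before the listed start in Psma4 and leaves it 172 of the 250 bases. The windows are chr9:54950609-54950780 for Psma4, chr14:55578244-55578493 for Psme1 and chr5:123227940-123228189 for Psmd9. Capitals mark matches to the GC box GGGCGG (or CCGCCC on the other strand), to the antioxidant response element core TGACNNNGC and to the core of the interferon-stimulated response element.
Psma4: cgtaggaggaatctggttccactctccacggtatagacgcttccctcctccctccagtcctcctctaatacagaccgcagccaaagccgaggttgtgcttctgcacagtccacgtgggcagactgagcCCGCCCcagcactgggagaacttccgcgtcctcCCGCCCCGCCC
Psme1: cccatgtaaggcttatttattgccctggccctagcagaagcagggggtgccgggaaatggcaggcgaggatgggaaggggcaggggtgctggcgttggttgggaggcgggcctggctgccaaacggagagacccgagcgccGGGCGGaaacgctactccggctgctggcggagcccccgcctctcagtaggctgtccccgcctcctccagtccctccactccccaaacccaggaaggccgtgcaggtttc
Psmd9: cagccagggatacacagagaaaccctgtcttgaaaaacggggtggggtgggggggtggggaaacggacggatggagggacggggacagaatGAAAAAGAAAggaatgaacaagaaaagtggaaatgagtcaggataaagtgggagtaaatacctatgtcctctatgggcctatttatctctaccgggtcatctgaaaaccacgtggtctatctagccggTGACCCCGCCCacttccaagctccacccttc
Psma4 had GC box matches that start 44, 11 and 6 bases before the gene, of which the last pair share a base. Psme1 had 1 such match, 109 bases before the gene. In Psmd9 the antioxidant response element core, 31 bases before the gene, overlapped a GC box, and the interferon-stimulated core began 159 bases before it.

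Promoter windows were found for 37 of the 45 genes without Psmc3ip and Psme3ip1, which were not searched. Searched on both strands of the whole 250 bases before each listed start, the GC box was present in 20 of them (54.1%), against 35.4% of the windows of 27025 genes. The antioxidant response element core, the motif bound by NRF1 and NRF2, was present in 5 (13.5%; Psmb5, Psmb6, Psmc6, Psmd12 and Psmd9), against 11.5% of all genes. The interferon-stimulated core was present in 3 (8.11%; Psmb3, Psmd4 and Psmd9), against 3.46%, the gamma-activated site TTCNNNGAA in 1 (2.7%; Psmg1), against 8.13%, and CCAAT in 13 (35.1%), against 37.5%. A match is a description of these letters in the window and shows no binding.

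High-fat loading was addressed by the comparison of HF with LF. Among the proteasome genes Psma4 was higher in HF in the values as deposited. The direction held, without a call, when z-scores were centred (5.07). It turned when each array was centred on its median (-2.14), a setting that called 42047 of all probe sets lower and 322 higher. Most of the other proteasome probe sets lay slightly below their LF means as deposited, without passing the test. Called at a Benjamini-Hochberg adjusted p under 0.05 over all 45037 probe sets (limma) was 1 of the 100, against 0.671% of all probe sets (121 higher and 181 lower; 205 higher and 6993 lower after quantile normalisation). The median standardized difference of the 100 was -0.35, with quartiles of -0.90 and -0.00395, against 0.0149 for all probe sets. In 75 of 100 the HF mean was below the LF mean, against 49.2% of all probe sets, and among probe sets above the median level this held for 60 of 79 proteasome probe sets, against 54.1% of all. With 1 probe set for each gene, the brightest one, 34 of 47 genes were below 0, with a median of -0.27.

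An unadjusted p under 0.05 was reached by 17 proteasome probe sets that were lower in HF, against 7.25% of all probe sets, and by 4 that were higher, against 5.69%. Among probe sets above the median level, 16 of 79 were lower at that p, against 11.5% of all, and 4 higher, against 7.08%. With the brightest probe set of each gene, 7 of 47 were lower and 3 higher. The groups of mice did not overlap in 2 probe sets, those of Psma4 and Psmb10, both higher in HF, against 1.57% of all probe sets, or 0.644% in that direction. The shift of the median did not separate the diets. The median over the 100 probe sets was 0.06, -0.58, -0.46, -0.82, -0.71 and -0.12 in HF mice 1, 2, 3, 4, 5 and 8, against 0.17, -0.56, 0.61, -0.37, 0.22 and -0.13 in LF mice 1, 2, 3, 4, 5 and 8, so that the diets overlapped.

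**Figure D1:**
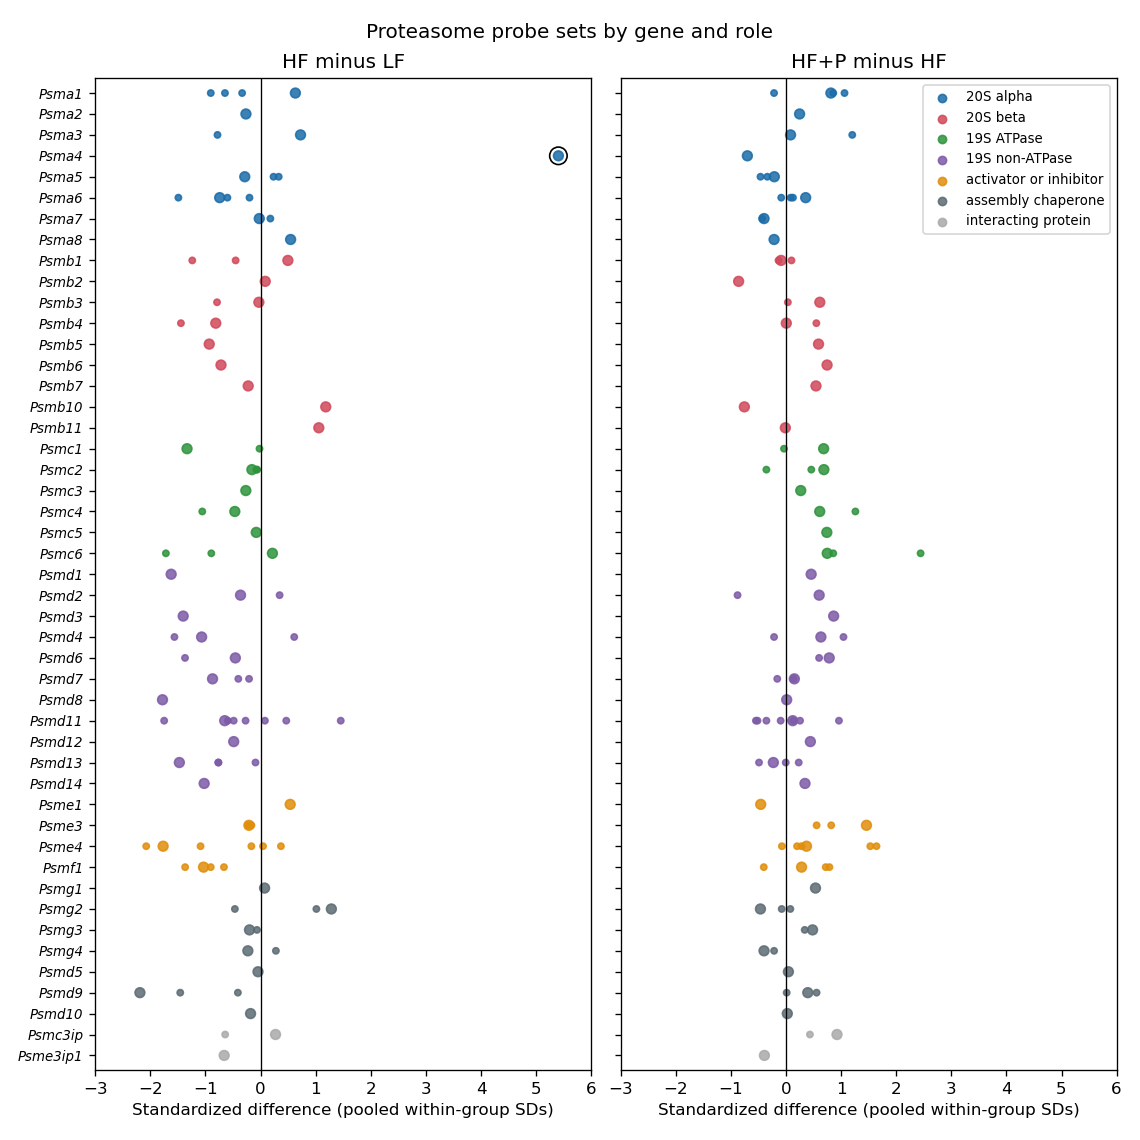
Standardized difference (x axis, pooled SDs within groups) of each proteasome probe set by gene (y axis) and role (colour), HF minus LF on the left and HF+P minus HF on the right. Large points are the brightest probe set of a gene, small points its others, and the ring marks Psma4, at 5.40 in HF minus LF, the 1 probe set that passed the test; the other points on the left lie between -2.19 and 1.45.

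Among the alpha subunits, which form the outer rings of the core, 18 probe sets of 8 genes had a median of -0.23, and 11 lay below 0. Psma4, read by 1 probe set (ID 1460339_at), was at 4.23 (lowest), 5.96 (median) and 7.27 (highest) in HF mice, against -1.07, -0.10 and 1.56 in LF mice. Every HF mouse was above every LF mouse. The standardized difference was 5.40 (2.83 to 7.93; limma, adjusted p = 0.00160).

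In deposited units the difference of Psma4 was 1.53e-05, with a pooled SD of 2.61e-06. The mean of the array medians differed between HF and LF by 6.45e-05, which is more than the difference of the gene, and after each array was centred on its median Psma4 was lower in HF (-2.14, adjusted p = 0.00197). That centring puts nearly every probe set lower in HF, 42047 against 322 higher. Without it, the median distance from the LF mean over all probe sets was -0.05 to 0.07 pooled SDs in HF mice. In LF mice it was -0.09 to 0.08. Centring of z-scores left Psma4 at 5.07 without a call (adjusted p = 0.337). Its direction is therefore that of the values as deposited and of the centred z-scores, and not that of arrays centred on their medians.

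The other alpha subunits did not pass the test. Psma1 was at -0.55, 0.54 and 2.19 in HF mice, against -1.67, 0.33 and 0.98 in LF mice, with a standardized difference of 0.63 (-0.46 to 1.70; limma, adjusted p = 0.671). Its 4 probe sets did not share a sign and ranged from -0.90 to 0.63. Psma6 was at -2.13, -0.81 and 0.59 in HF mice, against -0.97, -0.35 and 1.76 in LF mice, with -0.74 (-1.82 to 0.37). Its 4 probe sets were all below 0, down to -1.49. After quantile normalisation, which left mice tied in this probe set, Psma6 had 0.99. The brightest probe sets of Psma2, Psma3, Psma5, Psma7 and Psma8, a testis subunit, lay between -0.29 and 0.72.

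The beta subunits had a median of -0.45 over 13 probe sets of 9 genes, 9 of them below 0. The constitutive peptidase subunits were all below 0. After quantile normalisation Psmb5 had 0.53, the same value as Psme1, since that scaling left mice tied in rank, so this sign is not a measured turn. Psmb5, the chymotrypsin-like subunit, was at -1.43, -1.01 and -0.64 in HF mice, against -2.07, 0.29 and 1.32 in LF mice, a standardized difference of -0.93 (-2.03 to 0.21; limma, adjusted p = 0.507). The HF mice lay close together and inside the range of LF mice. Psmb6, the caspase-like subunit, was at -1.40, -0.93 and 0.05 in HF mice, against -2.22, 0.29 and 1.19 in LF mice, a standardized difference of -0.72 (-1.79 to 0.39). Psmb7, the trypsin-like subunit, was at -1.57, -0.36 and 1.94 in HF mice, against -0.95, -0.16 and 0.99 in LF mice, with -0.23 (-1.27 to 0.83). For both the groups overlapped.

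Psmb10, the trypsin-like subunit of the immunoproteasome, lay above 0, also under each other scaling tried (1.06 to 1.19). Centred on array medians it was called (1.15, limma, adjusted p = 0.0399), in a setting that called 98 of the 100 lower. It was at 0.38, 0.74 and 4.00 in HF mice, against -0.46, 0.02 and 0.37 in LF mice. No HF mouse fell within the LF range, but the lowest was above it by little, and HF mouse 3 alone reached 4.00. The standardized difference was 1.18 (-0.00430 to 2.32; limma, adjusted p = 0.364), and without HF mouse 3 it was 1.93 (adjusted p = 0.168). HF mouse 3 is the mouse that stood apart in interferon response genes, of which 14 of 15 measured were higher in HF with a median of 1.07 and 0 called, and the part of these genes in the difference of Psmb10 was not tested. Psmb2, a structural beta subunit, was at -0.93, -0.03 and 1.65 in HF mice, against -1.89, 0.20 and 1.06 in LF mice, with 0.084 (-0.96 to 1.13), and Psmb11, the thymus subunit, had 1.06.

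**Figure D2:**
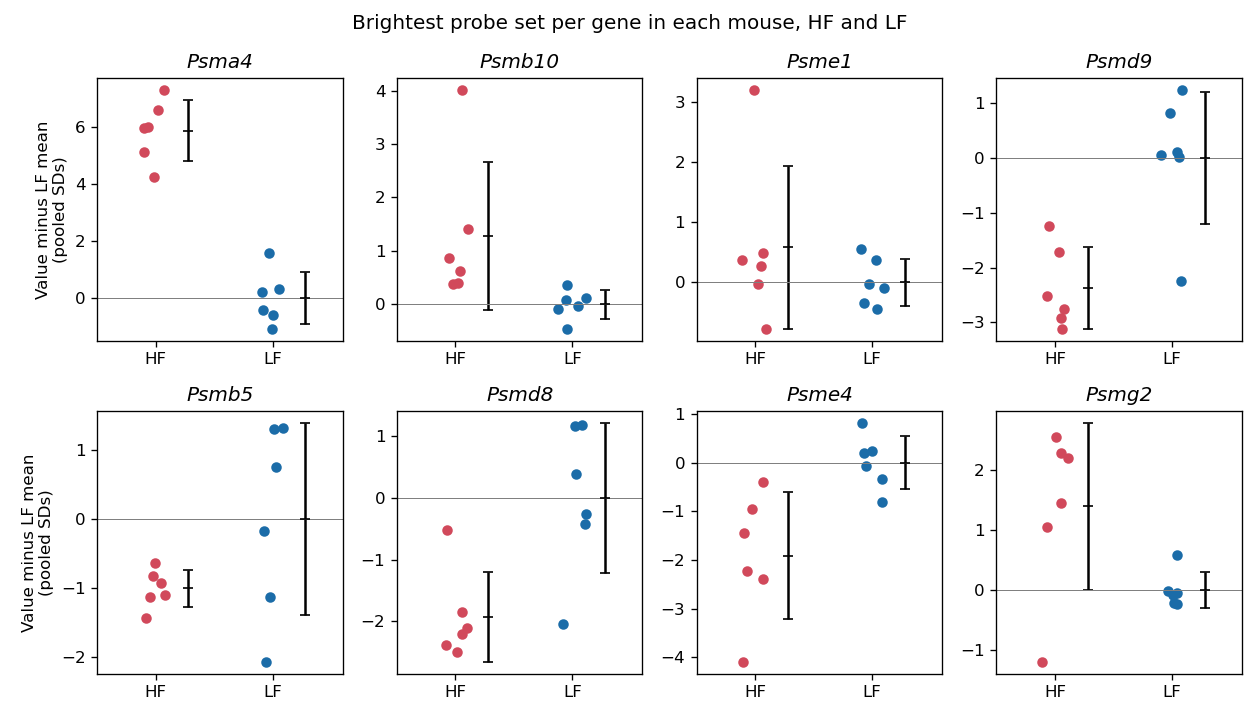
Value of each mouse (points; y axis, distance from the LF mean in pooled SDs) in HF (left) and LF (right) livers for 8 proteasome genes, with the mean ± SD of 6 mice beside them. Psma4 and Psmb10 do not overlap between diets, and HF mouse 3 is the high point of Psmb10 (4.00) and Psme1 (3.20).

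The ATPases of the 19S cap had a median of -0.21, with 11 of 12 probe sets of 6 genes below 0 and 0 called. Of the 12, 2 had an unadjusted p under 0.05, both lower, against 7.25% of all probe sets in that direction. Psmc1 was at -2.91, -1.68 and 0.08 in HF mice, against -1.40, 0.13 and 0.94 in LF mice, a standardized difference of -1.33 (-2.50 to -0.12; limma, adjusted p = 0.300). It had 4 of 6 HF mice below all LF mice, while its other probe set was near 0, at -0.020. After quantile normalisation Psmc1 had 0.99, the same value as Psma6, since that scaling left mice tied in rank. Psmc3 was at -0.96, -0.42 and 0.51 in HF mice, against -2.08, 0.32 and 1.28 in LF mice, a standardized difference of -0.27 (-1.31 to 0.79), but -1.69 and a call after quantile normalisation (adjusted p = 0.0448). Psmc6 had the 1 probe set above 0, at 0.21 (-0.84 to 1.26), with -0.69, 0.14 and 1.16 in HF mice, against -1.51, -0.11 and 2.10 in LF mice. Another probe set of Psmc6 was at -1.72, so its probe sets did not share a sign.

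The non-ATPase subunits of the 19S cap had a median of -0.60, the lowest of the roles apart from the interacting proteins (-0.64 over 3 probe sets), with 22 of 27 probe sets of 11 genes below 0 and 0 called. Of these, 7 lower and 1 higher had an unadjusted p under 0.05, against 7.25% and 5.69% of all probe sets. In all 11 genes the brightest probe set was below 0. Psmd8 was at -2.51, -2.16 and -0.51 in HF mice, against -2.05, 0.06 and 1.18 in LF mice, with a standardized difference of -1.78 (-3.05 to -0.45; limma, adjusted p = 0.170). In it 4 of 6 HF mice lay below all LF mice.

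Psmd3 was at -2.96, -1.36 and -0.53 in HF mice, against -1.98, 0.47 and 0.88 in LF mice, with a standardized difference of -1.40 (-2.59 to -0.17; limma, adjusted p = 0.275). Psmd13 was at -2.08, -1.81 and -0.40 in HF mice, against -2.16, 0.40 and 1.16 in LF mice, a standardized difference of -1.47 (-2.67 to -0.22; adjusted p = 0.295), and all 4 of its probe sets were below 0. Psmd2, the scaffold subunit that receives ubiquitin-like shuttle proteins, had the smallest difference of the brightest probe sets in this role, -0.36 (-1.41 to 0.70), with -2.38, 0.041 and 0.15 in HF mice, against -1.33, 0.11 and 1.17 in LF mice. There HF mouse 5 lay alone below the other mice. Psmd14, the deubiquitinase of the cap, was at -1.02, Psmd4, a ubiquitin receptor, at -1.07 and Psmd1, the other large scaffold, at -1.62. The 8 probe sets of Psmd11, the most of any gene here, ranged from -1.75 to 1.45.

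Among the activators and the inhibitor Psmf1, 11 of 14 probe sets of 4 genes were below 0, with a median of -0.45 and 0 called. Psme4, the large nuclear activator PA200, was at -4.09, -1.83 and -0.40 in HF mice, against -0.81, 0.064 and 0.80 in LF mice. In 5 of 6 HF mice it lay below all LF mice, and the standardized difference was -1.77 (-3.03 to -0.45; limma, adjusted p = 0.162), and -0.29 after quantile normalisation. Its 6 probe sets ranged from -2.07 to 0.37. Psme1, a subunit of the interferon-inducible activator PA28, was at -0.78, 0.31 and 3.20 in HF mice, against -0.45, -0.065 and 0.55 in LF mice, with 0.54 (-0.55 to 1.59; adjusted p = 0.730). Its high value was again that of HF mouse 3, without which it had 0.12 (adjusted p = 0.964). Psme3, the nuclear PA28 subunit, was at -1.67, -0.25 and 1.30 in HF mice, against -1.29, -0.15 and 1.50 in LF mice, with -0.21 (-1.26 to 0.84), but -2.27 and a call after quantile normalisation (adjusted p = 0.0135), and the 4 probe sets of Psmf1 were all below 0, between -1.37 and -0.66.

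The assembly chaperones had a median of -0.18, with 9 of 13 probe sets of 7 genes below 0 and 0 called. Psmd9, a chaperone of the ATPase ring, was at -3.11, -2.63 and -1.23 in HF mice, against -2.25, 0.080 and 1.24 in LF mice. A single LF mouse, number 2, lay among the HF mice. The standardized difference was -2.19 (-3.57 to -0.75, limma, adjusted p = 0.0894), and all 3 of its probe sets were below 0. Without LF mouse 2, the mouse that narrowed the difference, Psmd9 was at -3.89 and passed the test (limma, adjusted p = 0.0136). Fits without any other single mouse did not call it.

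Psmg2, a chaperone of the alpha ring, was at -1.19, 1.82 and 2.55 in HF mice, against -0.23, -0.063 and 0.58 in LF mice. In 5 of 6 HF mice it lay above all LF mice, and HF mouse 8 lay below them. The standardized difference was 1.28 (0.076 to 2.44, limma, adjusted p = 0.321). Without HF mouse 8, the mouse that narrowed the difference, Psmg2 was at 3.68 and passed the test (limma, adjusted p = 0.0247). Fits without any other single mouse did not call it. Centring of z-scores left Psmg2 at 1.26 without a call. Other scalings turned it, to -0.62 after quantile normalisation and -2.53 after centring on array medians, a setting that called 98 of the 100 lower. Psmg1, its partner, was at -1.77, 0.15 and 1.06 in HF mice, against -0.99, -0.20 and 1.59 in LF mice, with 0.072 (-0.97 to 1.12; -0.94 after quantile normalisation). The probe sets of Psmc3ip and Psme3ip1, which are not subunits, lay between -0.66 and 0.27.

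Psmb10 and Psme1, both inducible by interferon, had the largest SDs of the deposited value among the proteasome probe sets. Over HF and LF these lay at percentiles 99.3 and 97.1 of all probe sets. Deposited differences are not comparable in size between probe sets, so this order holds for deposited units only. HF mouse 3 was the highest HF or LF mouse in both genes, and the spread without it was not computed. The SD over the 12 arrays of HF and LF was 0.00255 for Psmb10 and 0.000239 for Psme1, which is 713 and 66.8 times the median of the 100 probe sets. Next came a probe set of Psmd9, at 7.71e-05, 21.5 times that median. In the 12 arrays of HF+P and HF it was 0.00197 and 0.000237, or 385 and 46.4 times that median, which is 5.11e-06 there. Psma4 had an SD of 8.37e-06 over HF and LF, 2.34 times the median, and of 7.04e-07 over HF+P and HF, 0.138 times the median. Among the same 6 HF livers alone its SD was 2.80e-06 when processed with LF and 3.50e-07 when processed with HF+P, with a correlation of 0.821 over the 6 arrays.

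**Figure D3:**
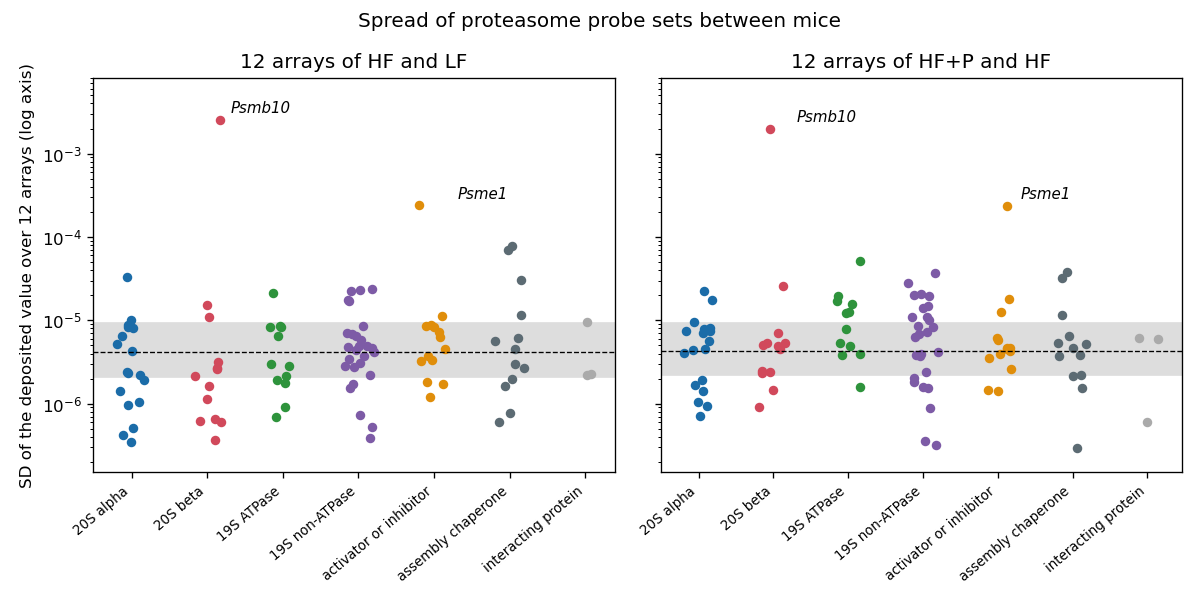
SD of the deposited value over 12 arrays (y axis, log scale) of each proteasome probe set by role, in the arrays of HF and LF (left) and of HF+P and HF (right). The dashed line is the median and the grey band the quartiles of all 45037 probe sets; Psmb10 (0.00255 and 0.00197) and Psme1 (0.000239 and 0.000237) lie above all other proteasome probe sets.

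The effect of the propagule powder was addressed by the comparison of HF+P with HF, which uses the same HF mice as the comparison above, so the values are not independent of it and are given side by side. Of the 100 proteasome probe sets 0 were called by limma, against 0.00222% of all probe sets, which is 1 probe set. An unadjusted p under 0.05 was reached by 6 that were higher in HF+P, against 3.74% of all probe sets, and by 0 that were lower, against 3.2%. The lowest adjusted p of a proteasome probe set was 0.436. The median standardized difference was 0.22, against -0.0095 for all probe sets, and 66 of 100 were above 0, against 49.3% of all. Among probe sets above the median level, 54 of 78 proteasome probe sets were above 0, against 55.7% of all. Of these 78, 5 were higher at an unadjusted p under 0.05, against 5.34%, and 0 lower, against 2.58%. With the brightest probe set of each gene, 1 of 47 was higher at that p.

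In HF+P mice 1, 2, 3, 4, 7 and 8 the median over the 100 probe sets was 1.16, 0.31, -0.53, -0.025, 0.16 and 0.61, against 0.39, -0.16, 0.11, -0.41, -0.22 and 0.28 in HF mice 1, 2, 3, 4, 5 and 8. The diets overlapped, and HF+P mouse 1 was the highest of the 12. Macrophage markers were higher in HF+P in 0 of 11 genes (scores of -1.83 to 0.27 in HF+P mice, against -1.06 to 1.94 in HF mice) and hepatocyte markers in 7 of 9 (-0.40 to 0.91 in HF+P mice, against -0.64 to 0.78 in HF mice). Lymphocyte markers were higher in HF+P in 2 of 11 (-1.02 to -0.13 in HF+P mice, against -0.68 to 1.10 in HF mice), endothelial markers in 3 of 4 (-0.18 to 0.43 in HF+P mice, against -0.49 to 0.47 in HF mice), stellate markers in 1 of 4 (-1.06 to 0.90 in HF+P mice, against -0.72 to 0.94 in HF mice) and red blood cell markers in 0 of 2 (-1.75 to 0.050 in HF+P mice, against -0.78 to 0.99 in HF mice). Of these lists 0 genes were called, and their part in the proteasome values was not tested. With the brightest probe set of each gene, 34 of 47 genes were above 0, with a median of 0.35.

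**Figure D4:**
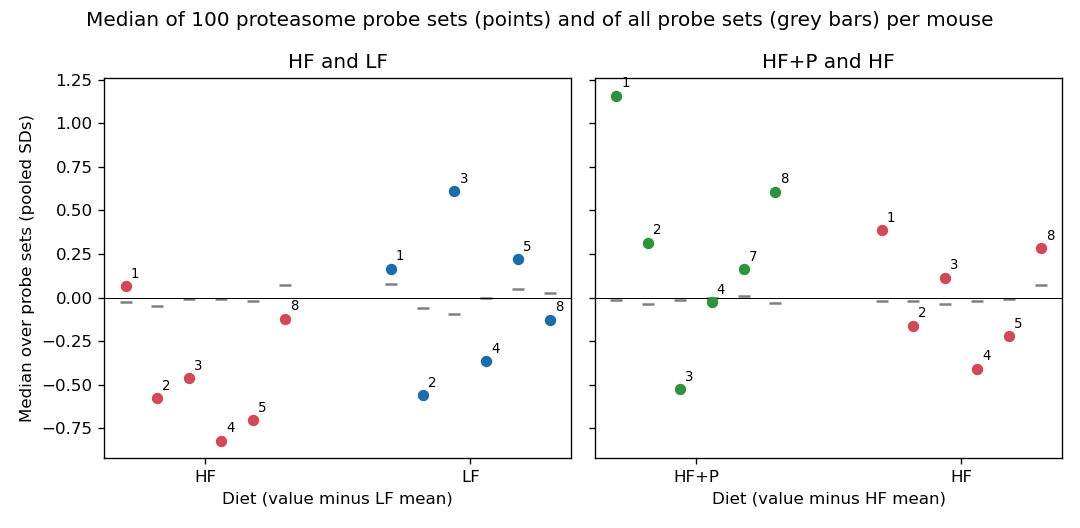
Median over the 100 proteasome probe sets in each mouse (points, numbered by mouse; y axis, distance from the LF mean on the left and from the HF mean on the right, in pooled SDs), with the median of all probe sets as grey bars. HF mice lie between -0.82 and 0.06 and LF mice between -0.56 and 0.61; HF+P mice lie between -0.53 and 1.16 and HF mice between -0.41 and 0.39.

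In the core, the alpha subunits had a median of -0.00028 in HF+P against HF, with 9 of 18 probe sets above 0. Psma4 was at -2.57, -0.38 and 0.70 in HF+P mice, against -0.55, -0.12 and 0.86 in HF mice. The groups overlapped and the standardized difference was -0.70 (-1.77 to 0.40; limma, adjusted p = 0.878), beside 5.40 in HF against LF, and 0.54 after arrays were centred on their medians. Psma1 was at -0.30, 0.89 and 2.33 in HF+P mice, against -1.14, -0.098 and 1.37 in HF mice, with 0.82 (-0.30 to 1.90). Psma6 had -1.40, 0.14 and 1.82 in HF+P mice, against -1.02, -0.11 and 1.18 in HF mice, with 0.36 (-0.71 to 1.41). Psma4 was the lowest of the 8 alpha genes by its brightest probe set, and Psma1 the highest.

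The beta subunits had a median of 0.035, with 8 of 13 probe sets above 0. Psmb5 was at -0.50, 0.24 and 3.15 in HF+P mice, against -0.69, -0.014 and 0.88 in HF mice, a standardized difference of 0.59 (-0.50 to 1.65; limma, adjusted p = 0.859). Psmb6 was at -0.71, 0.66 and 2.88 in HF+P mice, against -0.49, -0.17 and 1.11 in HF mice, with 0.75 (-0.36 to 1.82). Psmb7 was at -0.72, 0.37 and 2.11 in HF+P mice, against -0.99, -0.072 and 1.59 in HF mice, with 0.55 (-0.54 to 1.60). The constitutive peptidase subunits were thus all above 0, and none passed the test.

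Psmb10 was at -1.44, -0.82 and -0.14 in HF+P mice, against -0.87, -0.47 and 2.55 in HF mice, with a standardized difference of -0.75 (-1.83 to 0.36; limma, adjusted p = 0.814). All 6 HF+P mice lay below the HF mean, which holds the high value of HF mouse 3, and without that mouse it had -0.57. Interferon response genes were below 0 in 15 of 15 measured (scores of -1.26 to 0.20 in HF+P mice, against -0.96 to 2.34 in HF mice), with a median of -0.54 and 0 called, and their part in the difference of Psmb10 was not tested. Psmb2 was at -2.95, -0.64 and 0.57 in HF+P mice, against -0.79, -0.12 and 1.07 in HF mice, with -0.86 (-1.95 to 0.27; 0.28 after arrays were centred on their medians).

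The ATPases of the 19S cap had the highest median of the roles, 0.69, with 10 of 12 probe sets above 0. Of the 12, 2 had an unadjusted p under 0.05, both higher, against 3.74% of all probe sets in that direction. Psmc6 was at -0.84, 0.92 and 2.14 in HF+P mice, against -1.09, -0.078 and 1.04 in HF mice, with 0.75 (-0.36 to 1.83; limma, adjusted p = 0.832) for its brightest probe set. Another of its probe sets (1417769_at), picked after its values were seen, was the 1 of 100 whose groups did not overlap, against 0.355% of all probe sets. It was at 0.88, 2.50 and 4.61 in HF+P mice, against -0.53, -0.079 and 0.76 in HF mice. The standardized difference was 2.44 (0.93 to 3.90; limma, adjusted p = 0.436).

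That probe set was at -1.72 in HF against LF, and the 3 probe sets of Psmc6 were all above 0 in HF+P against HF. Psmc1 was at -1.47, 0.91 and 1.98 in HF+P mice, against -0.93, -0.067 and 0.75 in HF mice, a standardized difference of 0.68 (-0.42 to 1.75). Psmc3 had the lowest brightest probe set of the ATPases, 0.27 (-0.79 to 1.31), with -1.43, 0.18 and 1.93 in HF+P mice, against -0.52, -0.061 and 0.47 in HF mice. All 6 ATPase genes were above 0 by their brightest probe set, between 0.27 and 0.75, and none passed the test.

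The non-ATPase subunits had a median of 0.14, with 17 of 27 probe sets above 0 and 0 with an unadjusted p under 0.05. Psmd3 was at -0.38, 0.78 and 2.22 in HF+P mice, against -1.53, -0.012 and 1.25 in HF mice, with 0.87 (-0.26 to 1.96; limma, adjusted p = 0.799). Psmd13 was at -1.99, -0.088 and 1.31 in HF+P mice, against -0.63, -0.14 and 1.16 in HF mice, with -0.23 (-1.27 to 0.83). These were the highest and the lowest of the 11 genes, but Psmd13 was above 0 after quantile normalisation (0.45) and after centring on array medians (0.54). Psmd8 had 0.014 (-1.03 to 1.06), with -1.37, -0.36 and 1.68 in HF+P mice, against -0.69, -0.085 and 1.41 in HF mice. Psmd2 had 0.60 (-0.49 to 1.67), with -0.34, 0.57 and 1.86 in HF+P mice, against -2.24, 0.29 and 1.04 in HF mice.

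Among the activators and the inhibitor, 11 of 14 probe sets were above 0, with a median of 0.47. Of the 14, 3 had an unadjusted p under 0.05, all higher, against 3.74% of all probe sets in that direction. Psme3 was at 0.82, 1.45 and 2.80 in HF+P mice, against -1.57, 0.027 and 1.63 in HF mice. All 6 HF+P mice lay above the HF mean and 3 above all HF mice, with a standardized difference of 1.46 (0.21 to 2.66; limma, unadjusted p = 0.0183, adjusted p = 0.638), and of 0.21 after quantile normalisation. Its 3 probe sets were all above 0, between 0.56 and 1.46. Psme4 was at -0.70, 0.36 and 1.99 in HF+P mice, against -1.77, 0.11 and 1.21 in HF mice, with 0.37 (-0.69 to 1.42), and its other probe sets reached 1.64. Psme1 was at -0.78, -0.59 and 0.22 in HF+P mice, against -1.38, -0.26 and 2.63 in HF mice, with -0.46 (-1.51 to 0.62), and the high HF value was that of mouse 3, without which it had 0.063.

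The assembly chaperones had a median of 0.045, with 9 of 13 probe sets above 0 and 0 with an unadjusted p under 0.05. Psmd9 was at -1.85, 0.79 and 1.68 in HF+P mice, against -0.52, -0.24 and 0.88 in HF mice, with 0.40 (-0.67 to 1.45; limma, adjusted p = 0.911), beside -2.19 in HF against LF. Psmg1 was at -0.55, 0.71 and 1.41 in HF+P mice, against -2.16, 0.041 and 1.24 in HF mice, a standardized difference of 0.54 (-0.55 to 1.59). Psmg2 was at -1.78, -0.33 and 0.47 in HF+P mice, against -2.15, 0.25 and 1.28 in HF mice, with -0.46 (-1.51 to 0.61). In these 3 genes the diets overlapped.

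Probe sets of 1 gene often differed. Of the 47 genes 21 had 1 probe set and 26 had several. In HF against LF the probe sets shared a sign in 13 of the 26, all below 0, and in HF+P against HF also in 13, of which 10 were above 0 and 3 below. Probe sets of a gene read different parts of its transcripts, so a single probe set need not stand for the gene.

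Genes around the proteasome were read from a list of ubiquitin-proteasome genes, which holds the transcription factors Nfe2l1 and Nfe2l2, the maturation factor Pomp, ubiquitin genes, E1 and E3 enzymes, shuttle factors and cytosolic peptidases. Of its 80 probe sets of 28 genes 0 were called by limma in HF against LF. At an unadjusted p under 0.05, 6 were higher and 9 lower, against 5.69% and 7.25% of all probe sets. Their median was -0.076, and 43 were below 0. In HF+P against HF 0 were called as well, with a median of 0.019 and 41 above 0. At an unadjusted p under 0.05, 6 were higher and 3 lower there, against 3.74% and 3.2% of all probe sets. The 100 proteasome probe sets had 75 below 0 and 66 above 0 in these comparisons, and the difference from the list was not tested.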

How the data were processed

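Livers of 6 mice per diet were read on Affymetrix arrays. The deposited value table holds 24 columns in 2 value sets of 12 arrays, and the authors processed the HF arrays in both, per the labels. The authors used R 2.7.2, per the submitters' processing notes; how they summarised and normalised the arrays, and the log base, is not given in the sources used here. Deposited values of 5.36 to 15.0 were handled as log2. Symbols came from the platform annotation; all 100 probe sets matched a RefSeq gene, with 0 changed symbols.

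Each comparison was fitted within its value set in limma 3.58.1 (R 4.3.3) over 45037 probe sets, two-sided, with Benjamini-Hochberg adjustment and no covariate. Intervals used the noncentral t distribution with 10 degrees of freedom. Scripts were tested on simulated data. The 6 arrays per group limit the precision, and p-values measure the spread between mice.

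Each role's genes with the highest and lowest standardized difference, the peptidase subunits, the interferon-inducible activator Psme1 and genes past the threshold were named by their brightest probe set. The members and lists were chosen with earlier results of these data known. Alternatives were other scalings, filters, limma settings, thresholds, a block for mouse numbers and fits without single mice. The labels state no pairing by mouse number, and the main fits used none.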

Additional observations from a re-analysis of the deposited data

Results flagged for a closer look

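Among the named genes, 14 of 84 groups of 6 mice had a highest or lowest mouse whose gap to the next, as a share of the range of the group, exceeded Dixon's 95% critical value; chance gives about 1 in 20. The HF mice of each gene are counted in both value sets, so these groups are not independent, and Psmb10, Psme1, Psmd2 and Psmd8 enter with the same HF mouse in each. HF mouse 3 was the highest for Psmb10 (0.717 with LF, 0.716 with HF+P) and for Psme1 (0.684 and 0.678). HF mouse 5 was the lowest for Psmd2 (0.805 with LF, 0.693 with HF+P). HF mouse 8 was the highest for Psmd8 (0.674 with LF, 0.654 with HF+P) and, with HF+P, for Psmb6 (0.686), and HF mouse 4 was the highest for Psmd13 (0.648). Among HF+P mice, mouse 1 was the highest for Psmb5 (0.675) and mouse 8 for Psme1 (0.759). Among LF mice, mouse 2 was the lowest for Psmd9 (0.653) and mouse 4 the highest for Psmg2 (0.731).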

How the results depend on the processing

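Scaling moved HF against LF most. Centring each array on its median called 99 of the 100 proteasome probe sets (1 higher, 98 lower), with a median of -2.82, and 42369 of all probe sets and 77 of the pathway list, and turned Psma4 (-2.14), Psma1 (-2.28), Psmc6 (-2.79), Psmg2 (-2.53), Psmb2 (-2.77) and Psmg1 (-2.97). Quantile normalisation called 12 (0 higher, 12 lower), 7198 of all (205 higher, 6993 lower) and 20 of the pathway list. It left 22 proteasome probe sets, among them Psma4, without spread within groups, so they could not be tested. In others it left mice tied, so that Psmb5 and Psme1 both had 0.533 and Psmc1 and Psma6 both had 0.992. Signs after this scaling can thus rest on a few steps of rank. Centring z-scores called 0 of the 100 and 0 of all. The brighter part of the probe sets gave 568 calls (193 higher, 375 lower) and 1 of the pathway list. An adjusted p under 0.1 gave 2 of the 100, 861 of all and 1 of the pathway list. In HF+P against HF, all probe sets called were 2 after median centring and 0 after centring z-scores.

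With the mouse number as a block, 3 of the 100 were called in HF against LF, Psma4 (6.90), Psmc4 (-4.00) and Psmd11 (-3.64). In the pathway list 1 was called, a probe set of Nfe2l2 (-3.59). The called probe sets of Psmc4, Psmd11 and Nfe2l2 were not the brightest of these genes. The brightest of Nfe2l2 had 0.23 in the main fit. Same-numbered HF and LF mice correlated between -0.130 and 0.098, and 4 of 6 correlated best with their own number. Same-numbered HF+P and HF mice correlated between 0.034 and 0.209, and 3 of 5 did so. The labels state no pairing, so the main fits used none, and whether the numbers pair the mice was not tested.

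Leaving out each mouse in turn gave 1 to 2 calls among the 100 in HF against LF, a median of -0.466 to -0.250, 131 to 325 calls among all probe sets and 0 to 1 in the pathway list, and Psma4 was called each time, at 5.06 to 6.48. The second call was Psmd9 without LF mouse 2 and Psmg2 without HF mouse 8. That of the pathway list was the same probe set of Nfe2l2, without LF mouse 5. All calls fell to 131 to 174 without LF mouse 1, 3, 5 or 8 or HF mouse 2, 3 or 4. For HF+P against HF the ranges were 0 to 0, 0.0980 to 0.362, 0 to 2 (2 without HF mouse 2, 0 without HF+P mouse 1, 2 or 4) and 0 to 0. Leaving out the 3 probe sets of interacting proteins, a setting chosen after seeing the data, gave medians of -0.34 and 0.20 and the same counts of calls. Of 868 values of the named probe sets in other settings, 38 turned their sign, 6 of these with a call, and 830 did not; among these 830, 19 passed the threshold newly and 1 lost it.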
